A study of Mus musculus with 15 samples.

Results

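Perineuronal nets are dense coats of extracellular matrix around the cell body and proximal dendrites of certain neurons. A backbone of hyaluronan carries lecticans, which are chondroitin sulfate proteoglycans. Link proteins of the Hapln family fasten each lectican to hyaluronan, and tenascin-R crosslinks the lecticans at their other end. In the cerebellum such nets surround neurons of the deep nuclei, onto which Purkinje cells project, and a looser matrix of the same proteins fills the spaces between cells. Related matrix caps the nodes of Ranvier of myelinated axons.

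The 8 genes described here encode this matrix. They are the lecticans Acan (aggrecan), Bcan (brevican), Ncan (neurocan) and Vcan (versican), the link proteins Hapln1, Hapln2 and Hapln4, and the tenascin Tnr. They were chosen by name, but with earlier results of these data known, out of 24421 gene symbols in the count tables. All 8 had enough counts to enter a test over 15843 genes. Transcripts were counted in cerebellar tissue of FVB mice of 3 genotypes, with 5 libraries each. Wild-type mice had no transgene. ATXN1[82Q] mice carried human ATXN1 with an expanded glutamine tract, the mutation of spinocerebellar ataxia type 1, and ATXN1[82Q]V591A;S602D mice carried the same expanded protein with V591A and S602D, changes of a pair of residues that reduce its binding to CIC, a repressor of transcription. Both transgenes use the promoter of Pcp2, a gene of Purkinje cells. The labels used here give no age or sex, and the level of the human transgenes was not analysed here. Nor do they state 1 animal per library, and p-values refer to the spread among these libraries, which may be technical.

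The total of gene counts per library was 38067915 to 40640811 in wild type, 36467948 to 42818401 in ATXN1[82Q] and 38468429 to 41480492 in ATXN1[82Q]V591A;S602D. Levels are given as CPM (counts scaled to a common library size), adjusted by the trimmed mean of M-values. Differences are log2 fold changes from edgeR's quasi-likelihood test with Benjamini-Hochberg adjustment over all 15843 genes, and a gene was called at an adjusted p under 0.05. Some libraries held transcripts from outside the cerebellum: the summed CPM of 9 Hox genes, which are active in brainstem and spinal cord but not in cerebellum, was 1.79 and 8.03 in ATXN1[82Q] replicates 2 and 5 and 1.53 in ATXN1[82Q]V591A;S602D replicate 4, and at most 0.629 in the other libraries. Ttr, a choroid plexus gene, was under 100 CPM in 2 ATXN1[82Q] libraries, 2 with the substitutions and 3 of wild type. Of 12 Purkinje cell markers, all 12 fell in ATXN1[82Q], and their summed CPM was 3274 to 3971 against 8854 to 10146 in wild type. With the substitutions 6 of the 12 fell, and the sum was 6305 to 8644. In bulk tissue, fewer cells of a type and less RNA per cell cannot be told apart.

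In ATXN1[82Q] cerebella the matrix genes shifted in both directions. Bcan, Ncan and Hapln1 rose by 1.34-fold, 1.19-fold and 1.39-fold, and Hapln4 fell by 1.37-fold. That is 4 of 8 genes called against wild type, where 31.5% of all tested genes were called, and 3 of 8 called higher, where 16.6% of all were, with 1 of 8 lower, where 14.9% were. In 3 of the 8 genes, Bcan, Hapln1 and Hapln4, the 5 libraries of each genotype did not overlap, which held for 19.2% of all tested genes. The median log2 fold change of the 8 was 0.28, against 0.01 over all tested genes.

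With the substitutions none of the 8 genes was called against wild type, where 1.41% of all tested genes were called (0.208% higher and 1.2% lower), and in none did the libraries separate, which held for 3.16% of all. Hapln4 had the lowest p of the 8 there (edgeR unadjusted p = 0.00386, rank 438 among all tested genes). DESeq2 called Hapln4 lower (DESeq2 adjusted p = 0.0443), where it called 108 genes higher and 321 lower in all. Set against ATXN1[82Q] directly, 5 of 8 genes differed, where 28.1% of all tested genes did: Bcan, Ncan, Hapln1 and Hapln2 were lower (4 of 8, where 13.5% of all were lower) and Hapln4 was higher (1 of 8, where 14.6% were higher). In 4 of the 8, Bcan, Ncan, Hapln2 and Hapln4, the libraries did not overlap, as in 17.9% of all tested genes. The comparisons share libraries (wild type in both comparisons with it, ATXN1[82Q] in both that hold it), so their values are given side by side and are not independent of each other.

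**Figure D1:**
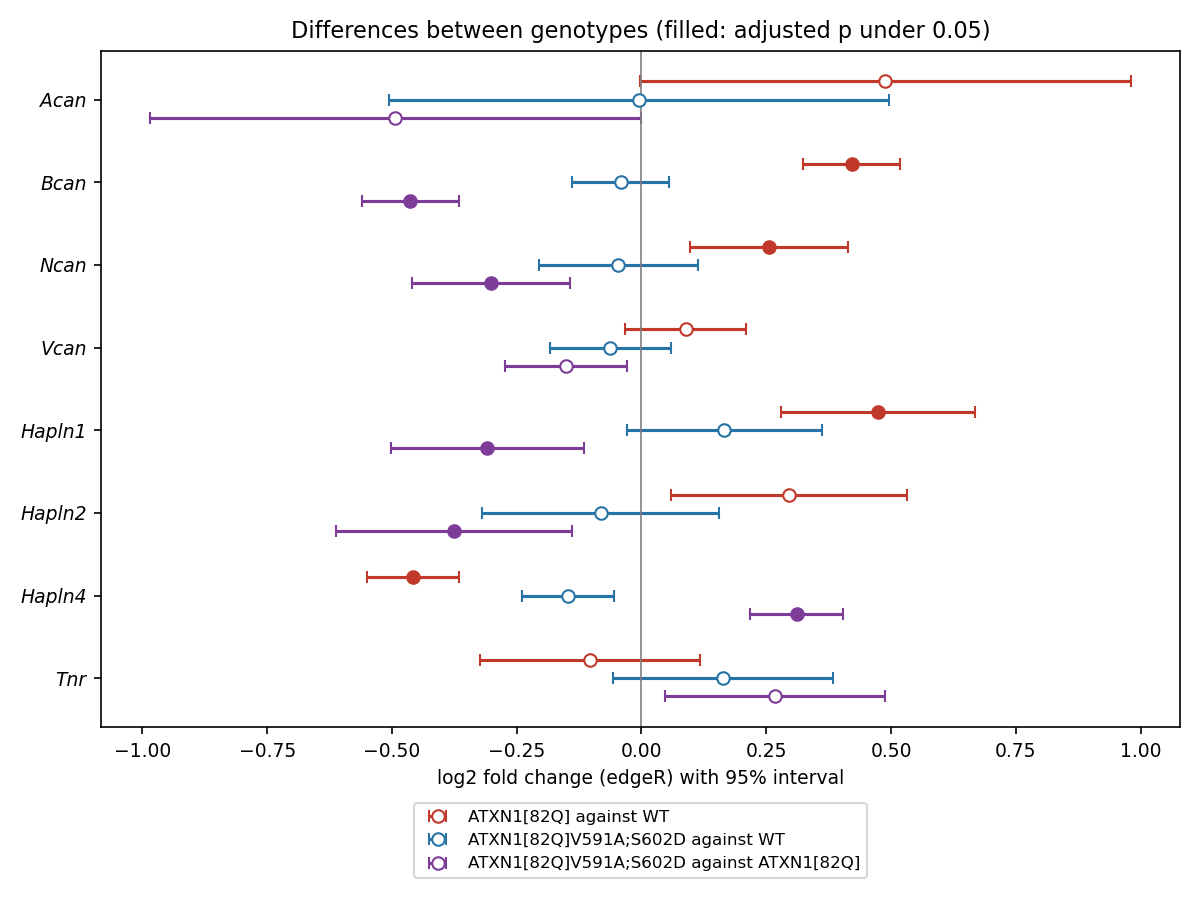
Log2 fold change of each matrix gene with its 95% interval in the 3 comparisons, by edgeR, with filled points for adjusted p under 0.05. ATXN1[82Q] against wild type (red) has Bcan, Ncan and Hapln1 above 0 and Hapln4 below it, while all 8 points of ATXN1[82Q]V591A;S602D against wild type (blue) are open.

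Among the lecticans, the proteoglycans that fill the matrix, brevican was the most abundant and separated best by genotype. Brevican is made mainly by astrocytes in the adult brain and gathers around synapses. The gene lies on chromosome 3 at 87987531 to 88000230, minus strand (GRCm38, GENCODE M21). Bcan stood at 265, 265, 227, 257 and 250 CPM in wild-type replicates 1 to 5, at 347, 311, 334, 361 and 341 CPM in ATXN1[82Q], and at 237, 258, 245, 240 and 248.6 CPM in ATXN1[82Q]V591A;S602D. Every ATXN1[82Q] library was above every other library, and the other genotypes overlapped throughout. The means were 253 ± 16.0, 339 ± 18.1 and 246 ± 8.14 CPM (SD, n = 5 each), from 8370 to 15095 counts per library. Bcan was higher in ATXN1[82Q] than in wild type by 0.42 on the log2 scale (SE 0.046, edgeR adjusted p = 2.80e-06). It was lower with the substitutions than in ATXN1[82Q] by a log2 difference of -0.46 (edgeR adjusted p = 3.57e-06), and differed from wild type there by -0.04, with a 95% interval of -0.14 to 0.06 (edgeR adjusted p = 0.780). The difference between ATXN1[82Q] and wild type was 0.38 to 0.45 under 18 alternatives and was called in all of them.

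Neurocan, the other lectican that rose, is typical of the developing brain and of astrocytes that react to injury. The gene lies on chromosome 8 at 70093085 to 70120873, minus strand. Ncan stood at 19.4, 19.9, 18.4, 19.3 and 21.4 CPM in wild type, 22.5, 22.2, 21.2, 23.4 and 28.1 CPM in ATXN1[82Q], and 19.0, 20.4, 18.3, 16.7 and 20.9 CPM with the substitutions. ATXN1[82Q] replicate 5 was the highest of the 15 libraries, and 4 of 5 ATXN1[82Q] libraries were above every wild-type library. Ncan was higher in ATXN1[82Q] than in wild type by 0.26 (SE 0.0749, edgeR adjusted p = 0.0151). Without ATXN1[82Q] replicates 2 and 5, the libraries with the most Hox transcripts, the edgeR adjusted p was 0.0745, and with the summed Hox level as a covariate it was 0.101. The substituted transgene gave a level below ATXN1[82Q] by a log2 difference of -0.30 (edgeR adjusted p = 0.00678) and differed from wild type by -0.05 (edgeR adjusted p = 0.865). In libraries with Ttr under 100 CPM the difference between the transgenes was -0.14 and was not called (edgeR adjusted p = 0.347).

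Versican is the largest lectican and occurs in splice forms that gene counts cannot separate, one of which is made by oligodendrocyte lineage cells and sits at nodes of Ranvier. Vcan lies on chromosome 13 at 89655312 to 89742509, minus strand. Its levels were 63.7, 70.6, 59.5, 70.5 and 62.1 CPM in wild type, 72.8, 69.2, 72.6, 66.8 and 65.8 CPM in ATXN1[82Q] and 68.4, 63.5, 60.5, 55.5 and 64.7 CPM with the substitutions. All 3 genotypes overlapped, and no comparison passed: the log2 difference was 0.09 for ATXN1[82Q] against wild type (edgeR adjusted p = 0.258), -0.06 with the substitutions against wild type (edgeR adjusted p = 0.725) and -0.15 for the 2 transgenes (edgeR adjusted p = 0.0589).

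Aggrecan is the lectican most closely tied to perineuronal nets, which are lost where neurons lack it. Acan lies on chromosome 7 at 79053483 to 79115099, plus strand, and was the least abundant of the 8 genes, with 47 to 174 counts per library. It stood at 2.64, 1.26, 1.73, 2.75 and 2.62 CPM in wild type, 2.42, 3.72, 1.98, 3.41 and 3.93 CPM in ATXN1[82Q] and 2.97, 2.39, 2.30, 1.66 and 1.66 CPM with the substitutions. ATXN1[82Q] replicates 2, 4 and 5 were above every wild-type library and replicates 1 and 3 were within the wild-type range. The log2 difference of ATXN1[82Q] from wild type was 0.49, but its 95% interval was -0.00303 to 0.98 and it was not called (edgeR adjusted p = 0.122). The 3 high ATXN1[82Q] libraries are those of that genotype with Ttr above 100 CPM. The other genotypes did not split this way. In wild type, replicate 4 had the most Acan with Ttr at 4.26 CPM, followed by replicates 1 and 5 with Ttr above 100 CPM. With the substitutions, replicate 1 had the most with Ttr at 14.3 CPM, and replicates 4 and 5 the least with Ttr at 3545 and 35.8 CPM. In the libraries of all genotypes with Ttr under 100 CPM the difference of ATXN1[82Q] from wild type was 0.19 (edgeR adjusted p = 0.736), and without ATXN1[82Q] replicates 2 and 5 it was 0.24, not called in either. At this depth and spread, a difference with the substitutions against wild type was not detectable (log2 difference -0.00436, 95% interval -0.505 to 0.496, edgeR adjusted p = 0.997).

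**Figure D2:**
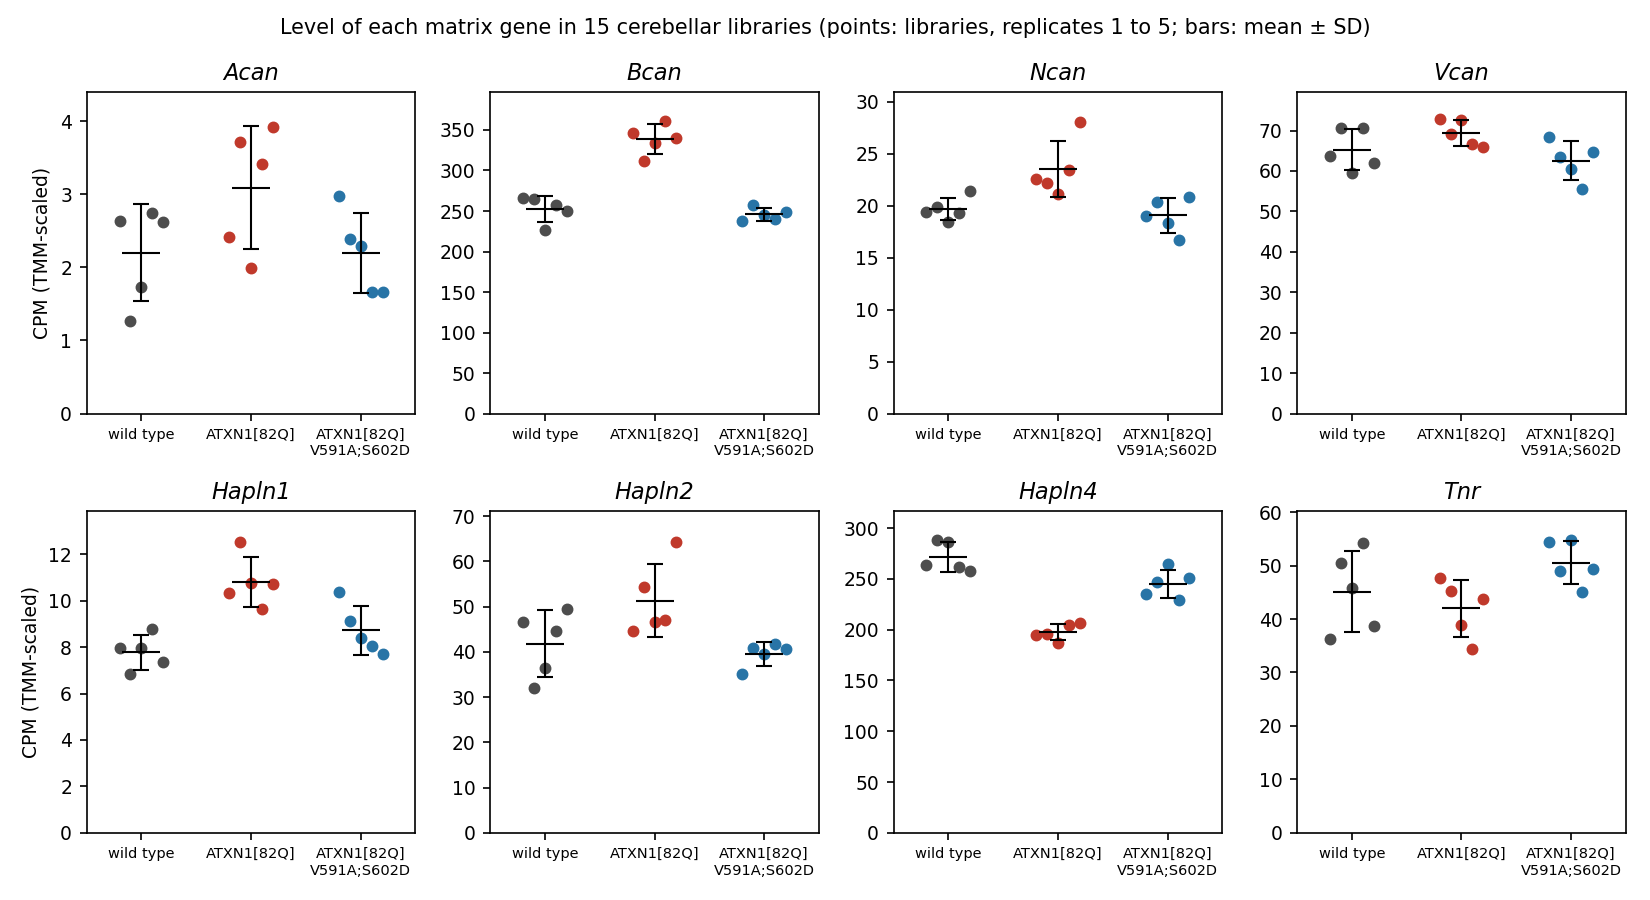
CPM of the 8 matrix genes in each of the 15 libraries (points, replicates 1 to 5 from left to right) with the mean and SD of each genotype (bars), each panel on its own linear axis from 0. Bcan and Hapln4 separate ATXN1[82Q] (red) from both other genotypes without overlap, in opposite directions.

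The link proteins moved in different directions. Hapln4, also called brain link protein 2, is known to hold brevican at the inhibitory synapses that Purkinje cell axons form on neurons of the deep nuclei. It lies on chromosome 8 at 70083457 to 70090862, plus strand. Hapln4 stood at 264, 288, 287, 262 and 258 CPM in wild type, at 195, 196, 187, 204 and 207 CPM in ATXN1[82Q] and at 235, 247, 264, 229 and 251 CPM with the substitutions. Every ATXN1[82Q] library was below every library of the other genotypes, and 4 of 5 libraries with the substitutions were below every wild-type library. The means were 272 ± 14.5, 198 ± 7.91 and 245 ± 13.7 CPM (SD, n = 5 each).

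Hapln4 was lower in ATXN1[82Q] than in wild type by a log2 difference of -0.46 (SE 0.044, edgeR adjusted p = 6.41e-07), which held its call in all 18 alternatives, with values from -0.55 to -0.44. With the substitutions it was higher than in ATXN1[82Q] by 0.31 (edgeR adjusted p = 9.64e-05). Against wild type the difference with the substitutions was -0.15, with a 95% interval of -0.24 to -0.05; it was not called (edgeR adjusted p = 0.139), whereas DESeq2 called it (adjusted p = 0.0443). The level of Hapln4 moved beside the summed Purkinje cell markers, which were lowest in ATXN1[82Q] and between the other genotypes with the substitutions. Of 10 granule cell markers 6 fell in ATXN1[82Q] and none rose, with summed CPM of 5612 to 6019 against 6906 to 7959 in wild type, without overlap, and 6835 to 7640 with the substitutions. The part of either marker list in the result was not tested.

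Hapln1, or cartilage link protein, is the link protein most closely tied to perineuronal nets. It lies on chromosome 13 at 89539796 to 89611652, plus strand. Hapln1 stood at 7.96, 6.82, 7.96, 8.79 and 7.35 CPM in wild type, 10.4, 12.5, 10.8, 9.65 and 10.7 CPM in ATXN1[82Q] and 10.4, 9.12, 8.41, 8.06 and 7.69 CPM with the substitutions. All ATXN1[82Q] libraries were above all wild-type libraries, and the libraries with the substitutions spread over both ranges. The log2 difference of ATXN1[82Q] from wild type was 0.47 (SE 0.0921, edgeR adjusted p = 0.000866). The substituted transgene gave less than ATXN1[82Q] by -0.31 (edgeR adjusted p = 0.0189). That call was lost without ATXN1[82Q] replicate 2 (edgeR adjusted p = 0.0526) and without ATXN1[82Q]V591A;S602D replicate 5 (edgeR adjusted p = 0.0538). It was also lost without both ATXN1[82Q] replicates 2 and 5 (edgeR adjusted p = 0.118) and in libraries with Ttr under 100 CPM (-0.23, edgeR adjusted p = 0.374). Against wild type Hapln1 with the substitutions differed by 0.17, with a 95% interval of -0.03 to 0.36 (edgeR adjusted p = 0.526).

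Hapln2, or brain link protein 1, is made by oligodendrocytes and sits with versican at nodes of Ranvier. It lies on chromosome 3 at 88021750 to 88027583, minus strand. Hapln2 stood at 46.5, 31.9, 36.5, 44.6 and 49.5 CPM in wild type, 44.5, 54.2, 46.6, 47.1 and 64.2 CPM in ATXN1[82Q] and 35.1, 40.7, 39.6, 41.7 and 40.7 CPM with the substitutions. ATXN1[82Q] replicates 2 and 5 were the highest of all, and the other 3 libraries of that genotype were within the wild-type range. The log2 difference of ATXN1[82Q] from wild type was 0.30 (SE 0.112) and was not called (edgeR adjusted p = 0.0537). Against ATXN1[82Q] the substituted transgene gave -0.38 (edgeR adjusted p = 0.0192). This was not called without ATXN1[82Q] replicate 5 (edgeR adjusted p = 0.0572) or without replicates 2 and 5 (-0.22, edgeR adjusted p = 0.172). Nor was it called with the summed Hox level as a covariate (-0.26, edgeR adjusted p = 0.0652) or in libraries with Ttr under 100 CPM (-0.27, edgeR adjusted p = 0.223). Without replicates 2 and 5 the difference of ATXN1[82Q] from wild type was 0.14.

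Tnr encodes tenascin-R, the trimeric glycoprotein that bundles lecticans in nets and is made by oligodendrocytes and some neurons. It lies on chromosome 1 at 159523769 to 159931729, plus strand, and 3.44% of its exon length overlaps an antisense gene, Gm38039. Tnr stood at 36.2, 50.4, 45.8, 54.3 and 38.8 CPM in wild type, 47.7, 45.2, 39.0, 34.4 and 43.7 CPM in ATXN1[82Q] and 54.4, 49.0, 54.7, 45.1 and 49.5 CPM with the substitutions. The wild-type libraries alone spanned most of the range of all 15. No comparison passed: the log2 difference was -0.10 for ATXN1[82Q] against wild type (edgeR adjusted p = 0.485), 0.16 with the substitutions against wild type (edgeR adjusted p = 0.577) and 0.27 between the transgenes (edgeR adjusted p = 0.0652).

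Per kilobase of exon, a scale for a rough comparison between genes, Hapln4 and Bcan stood far above the rest. The length is that of all annotated exons of a gene together. Splice forms that lack some of these exons are understated on it, and gene counts cannot separate the forms of Vcan. In wild type the order of mean levels was Hapln4 at 69.2 CPM per kilobase, Bcan at 62.2, Hapln2 at 17.6, Vcan at 4.51, Tnr at 3.51, Ncan at 2.73, Hapln1 at 1.32 and Acan at 0.295. The libraries of neighbours in this order overlapped only for Vcan with Tnr and Tnr with Ncan. In ATXN1[82Q] the first places were exchanged, with Bcan at 83.4 and Hapln4 at 50.4 CPM per kilobase and no overlap, and Tnr and Ncan both stood at 3.26. With the substitutions Hapln4 at 62.5 and Bcan at 60.5 CPM per kilobase overlapped. Brevican made up 90.8% of the lectican transcripts per kilobase in ATXN1[82Q], 89.2% in wild type and 89.3% with the substitutions. Hapln4 made up 68.3% of the transcripts of the 3 link proteins in ATXN1[82Q], 78.5% in wild type and 77.5% with the substitutions, while Hapln2 made up 29.2% in ATXN1[82Q] and 20.7% with the substitutions. The summed level of the lecticans was 69.8, 91.8 and 67.7 CPM per kilobase in wild type, ATXN1[82Q] and the substituted genotype, and that of the link proteins was 88.2, 73.9 and 80.7.

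Each lectican gene lies beside a link protein gene with no coding gene between them. Ncan and Hapln4 are 2222 bases apart and point toward each other; in ATXN1[82Q] against wild type the first rose by 0.26 and the second was lower, at -0.46. Vcan and Hapln1 are 43659 bases apart, and their log2 differences were 0.09, not called, and 0.47. Bcan and Hapln2 are 21519 bases apart on the same strand, with 0.42 and 0.30, the second not called, and between the transgenes both were lower with the substitutions, at -0.46 and -0.38. Differences between partners were not tested. Acan lies 2 bases from Hapln3, a link protein gene of low level here (0.329 CPM in ATXN1[82Q], 0.322 in wild type and 0.274 with the substitutions), with log2 differences of 0.49 and 0.03, neither called.

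Since the substitutions in the transgene concern binding to CIC, the promoters of the matrix genes were searched for the CIC octamer, written here as TGAATGAA, TGAATGGA, TCAATGAA or TCAATGGA on either strand. RefSeq's table for GRCm38.p6 gave a window upstream of its own gene start for 7 of the 8 genes. The RefSeq and GENCODE starts differ: the Hapln1 window lies wholly inside the GENCODE gene given above (250 of its bases), so it is not upstream of that start, and 72 bases of the Hapln2 window and 29 of the Ncan window lie inside their genes. None of the 7 windows of 250 bases held the octamer, which 3.19% of 32851 windows held. The windows of both lecticans that rose are shown, with CpG dinucleotides in capitals, because they differ in base composition although their transcripts moved the same way; that of Ncan is shortened to the bases outside the annotated transcript.
Bcan, chr3:88000357-88000606, minus strand: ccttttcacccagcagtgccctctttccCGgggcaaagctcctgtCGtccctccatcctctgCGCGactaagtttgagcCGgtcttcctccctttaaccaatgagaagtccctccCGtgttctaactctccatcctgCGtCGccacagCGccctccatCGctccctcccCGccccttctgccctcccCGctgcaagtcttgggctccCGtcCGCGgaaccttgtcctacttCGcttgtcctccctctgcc
Ncan, chr8:70120874-70121094, minus strand: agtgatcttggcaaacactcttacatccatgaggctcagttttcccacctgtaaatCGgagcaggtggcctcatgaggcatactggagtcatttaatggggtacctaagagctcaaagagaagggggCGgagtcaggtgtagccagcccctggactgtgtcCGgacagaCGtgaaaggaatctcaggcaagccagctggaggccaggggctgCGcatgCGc
The Bcan window had 62% G and C and 16 CpG, and that of Ncan 54.4% and 6 before shortening, against medians of 52.4% and 6 over all windows. Over the other members G and C ran from 46.8% (Tnr) to 74.4% (Acan). A GC box (GGGCGG, either strand) was present in the windows of Acan, Bcan, Ncan and Vcan and not in those of Hapln1, Hapln2 and Tnr, and 32.7% of all windows held it. A match of letters is a description and not a binding site.

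The libraries also varied within genotypes, and the 8 genes varied with different partners. After the mean of each genotype was removed, the genes most like Hapln2 over the 15 libraries were Myrf, Serpine2 and Mbp, with Pearson's r of 0.959, 0.956 and 0.938; Myrf is the transcription factor of myelin genes and Mbp a main myelin protein. For Hapln4 they included Cep126 (0.866) and Susd4 (0.852). For Bcan they were Ankrd24 (0.879), Lrrc38 (0.868) and Arl4c (0.868), and for Ncan Rgag4 (0.875), Mras (0.873) and St3gal6 (0.856). For Vcan they were Megf10 (0.862), Prkca (0.861) and Magi1 (0.853), for Tnr Zfp369 (0.929), Xkr4 (0.925) and Rprd1a (0.920), for Hapln1 Scoc (0.878), Nxt2 (0.867) and Oxr1 (0.856), and for Acan Ptpdc1 (0.853), Ano4 (0.843) and Gm20300 (0.839). These are the highest of about 12027 genes searched for each member, so they describe these libraries, which differ in the tissue they held, and carry no test.

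Markers of other cells also differed between genotypes. Of 12 oligodendrocyte markers 7 rose in ATXN1[82Q] against wild type and none fell, with a summed CPM of 7333 to 9287 against 5028 to 7420 in wild type and 6029 to 6700 with the substitutions. Of 7 oligodendrocyte precursor markers 4 rose and none fell, with sums of 210 to 258, 158 to 198 and 178 to 207 CPM in the same order. Of 12 astrocyte and Bergmann glia markers 5 rose (Gfap, Aqp4, Gja1, Aldh1l1 and Slc1a2) and 2 fell (Slc1a3 and Hopx), with sums of 5129 to 5636, 4901 to 5112 and 4857 to 5157 CPM in the same order. Of 11 microglial markers all 11 rose, with sums of 332 to 367 against 180 to 209 CPM in wild type and 190 to 226 with the substitutions. Of 8 meningeal fibroblast markers all 8 rose, with 1958 to 2595 against 954 to 1706 CPM in wild type and 1056 to 2011 with the substitutions. Of 18 markers of nuclear and brainstem neurons 6 had enough counts, of which 3 rose (Prph, Glra1 and Slc5a7). Their list summed to 31.7 to 92.7 CPM in ATXN1[82Q], 20.8 to 39.3 in wild type and 33.9 to 40.1 with the substitutions, and its mean log2 CPM was 1.56 and 2.02 above wild type in ATXN1[82Q] replicates 2 and 5. No marker of these lists was called with the substitutions against wild type. No marker of these lists was at 0 in all libraries. Of 9 cerebellar interneuron markers 5 rose in ATXN1[82Q] and none fell, with sums of 787 to 893 against 686 to 834 CPM in wild type. With the substitutions the sums were 700 to 757 CPM, and 1 interneuron marker, Prkcd, was lower than in wild type. The part of all these lists in the changes of Bcan, Ncan and Hapln1 and in the levels of Hapln2 was not tested. Without ATXN1[82Q] replicates 2 and 5 Bcan and Hapln1 were still called higher than in wild type.

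**Figure D3:**
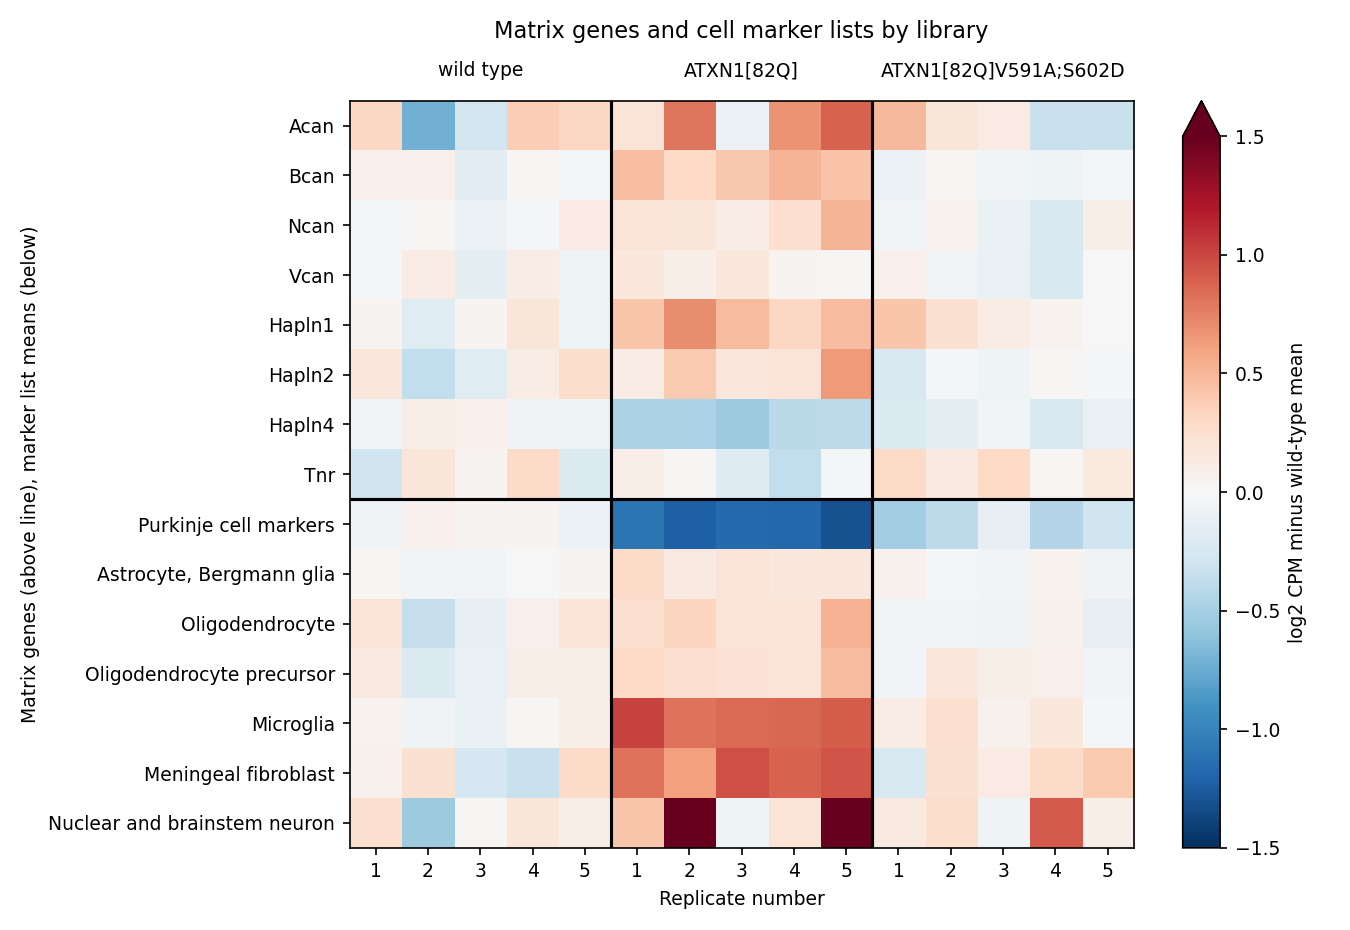
Log2 CPM minus the wild-type mean for the 8 matrix genes (above the line) and for the mean of each marker list (below it), in each of the 15 libraries, with colours cut at 1.5. Hapln4 and the Purkinje cell markers are low in all 5 ATXN1[82Q] libraries, and Hapln2 and the oligodendrocyte markers are highest in replicate 5 of that genotype.

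Genes that build, cut and bind the matrix were read from 5 lists of 99 symbols, of which 94 were tested. In ATXN1[82Q] against wild type 29 rose and 18 fell, 50% of the 94, where 31.5% of all tested genes were called. With the substitutions against wild type 2 were called, 2.13%, where 1.41% of all were. Between the transgenes 43 differed, 45.7%, where 28.1% of all did, with 16 higher and 27 lower with the substitutions.

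The largest change was in Tnc, which encodes tenascin-C, a relative of tenascin-R made by Bergmann glia and by reactive astrocytes. Tnc fell from 32.8 ± 5.30 CPM in wild type to 6.36 ± 1.73 CPM in ATXN1[82Q] (SD, n = 5 each), a log2 difference of -2.37 (edgeR adjusted p = 5.57e-08), while Tnr, which belongs to the same family, was not called. With the substitutions Tnc stood at 25.0 ± 6.26 CPM, 1.98 above ATXN1[82Q] on the log2 scale (edgeR adjusted p = 1.81e-06) and not called against wild type (-0.39, edgeR adjusted p = 0.367). In the same list of 23 proteoglycans and tenascins 11 rose in ATXN1[82Q] and 4 fell, 65.2%, against 31.5% of all tested genes called in this comparison. Dcn and Bgn, small proteoglycans of fibrous tissue, rose by 0.63 each, to 66.0 from 42.7 CPM and to 28.7 from 18.6 CPM, and Gpc2, a glypican of neurons, rose by 0.53. All 8 meningeal fibroblast markers rose in the same comparison. With the substitutions Sdc2, a syndecan, was lower than in wild type by -0.18 (edgeR adjusted p = 0.0396), a call that 10 of 18 alternatives lost. Sdc2 was also lower in ATXN1[82Q] than in wild type, at -0.22 (edgeR adjusted p = 0.000855), and was not called between the transgenes (0.04, edgeR adjusted p = 0.551).

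Of 15 tested genes that make, cut or bind hyaluronan, 3 rose in ATXN1[82Q] and 1 fell, 26.7%, which is below the 31.5% of all tested genes. Cemip, which takes part in hyaluronan breakdown, rose from 20.2 ± 1.62 to 39.0 ± 4.16 CPM, a log2 difference of 0.95, and Cd44, the main cell surface receptor for hyaluronan, rose from 7.77 ± 0.705 to 13.2 ± 1.23 CPM, or by 0.76. Itih5 rose by 0.26, and Has3, a hyaluronan synthase, was lower at -0.50. Cemip was the one gene of the 5 lists called higher with the substitutions against wild type, at 27.1 ± 3.82 CPM (log2 difference 0.43, edgeR adjusted p = 0.0275), and 9 of 18 alternatives lost that call.

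Of 20 tested matrix proteases and their inhibitors, 11 rose in ATXN1[82Q] and 4 fell, 75% where 31.5% of all tested genes were called. Adamts20 and Adamts9, metalloproteases that cut versican, rose by 1.03 (15.3 ± 2.55 against 7.498 ± 1.41 CPM) and by 0.69 (6.42 ± 0.558 against 3.98 ± 0.625 CPM). Adamts4, a protease that cuts aggrecan and brevican, was lower by a log2 difference of -0.22 (edgeR adjusted p = 0.0157). Adamts5, another protease of this list, was higher by 0.56 (edgeR adjusted p = 0.00149). The inhibitor Timp2 rose by 0.75, and Mmp2 rose by 0.68 with an edgeR adjusted p of 0.0492 that 13 of 18 alternatives lost. Timp3, an inhibitor held in the matrix, stood at 147 ± 10.3 CPM with the substitutions against 217 ± 13.1 in ATXN1[82Q], a log2 difference of -0.56. Against wild type Timp3 was higher in ATXN1[82Q] by 0.54 (edgeR adjusted p = 6.27e-05) and differed with the substitutions by -0.02 (edgeR adjusted p = 0.946). No gene of this list was called with the substitutions against wild type.

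Of 21 tested genes of chondroitin sulfate synthesis, which make the sugar chains of the lecticans, 2 rose in ATXN1[82Q] and 3 fell, 23.8%, also below the 31.5% of all tested genes. Dse and Dsel, epimerases that turn chondroitin into dermatan sulfate, rose by 0.49 and 0.39, and the sulfotransferase Ust and the chain-building enzyme Chsy1 were lower at -0.23 and -0.18. Chst7, a sulfotransferase of lower level, fell further, with a log2 difference of -1.03. The calls of Dse and Chsy1 were lost in 4 and 9 of 18 alternatives. The remaining 16 genes were not called, and the median of the list was -0.01, against 0.01 over all tested genes.

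Of 15 tested receptors for chondroitin sulfate and proteins that bind it, 2 rose and 6 fell in ATXN1[82Q], 53.3% where 31.5% of all tested genes were called. Nptx1, a neuronal pentraxin that gathers glutamate receptors, fell from 728 ± 33.1 to 484 ± 18.2 CPM, a log2 difference of -0.59, and stood at 658 ± 43.9 CPM with the substitutions. Nrcam, an adhesion protein of axons, was lower at -0.33, and Itga9, an integrin chain that binds tenascin-C, rose by 0.43. Nptxr, a pentraxin receptor, was lower at -0.68, a call that 6 of 18 alternatives lost.

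**Figure D4:**
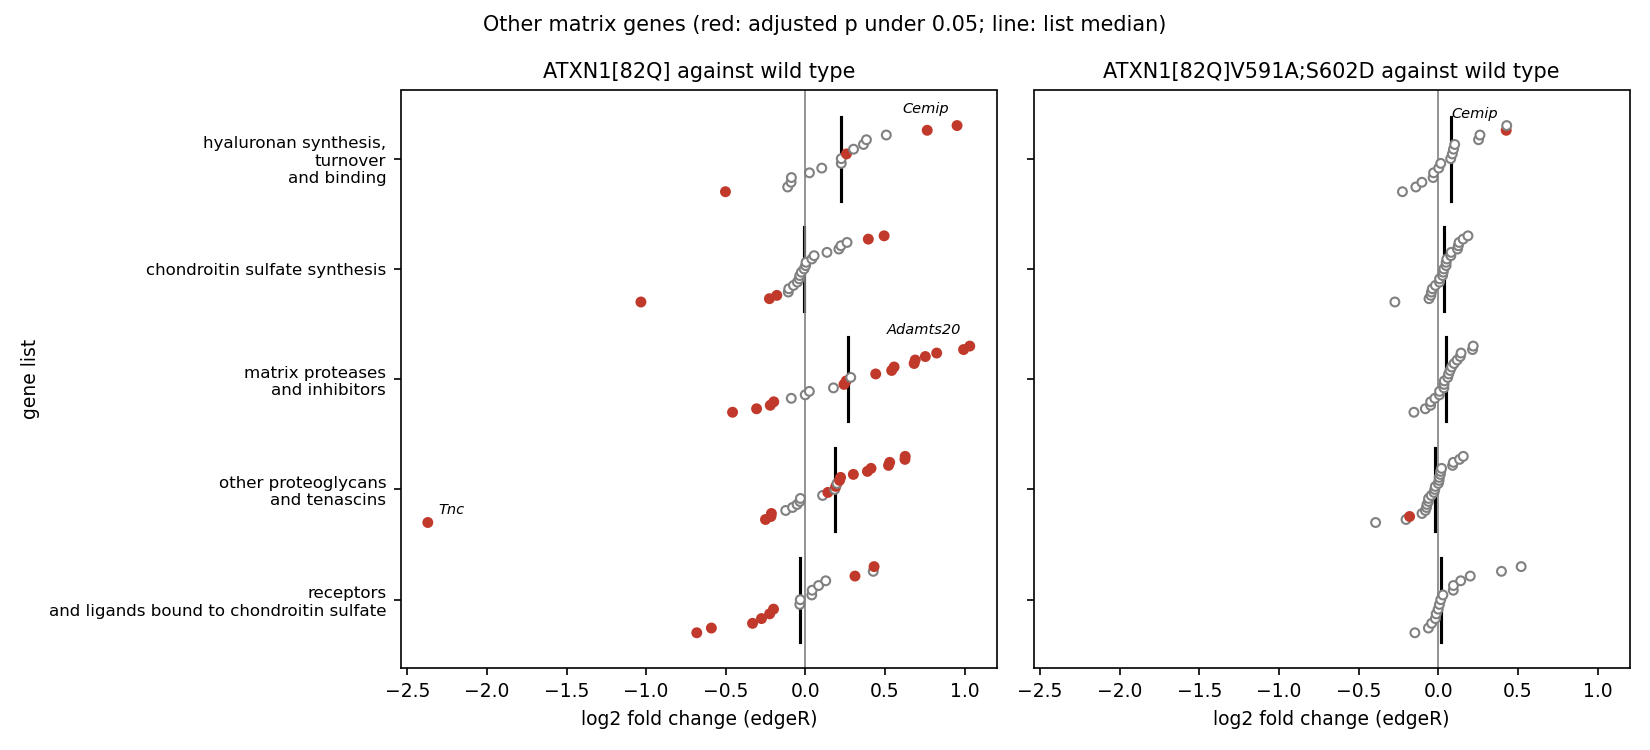
Log2 fold changes of 94 other matrix genes in 5 lists, for ATXN1[82Q] against wild type (left) and ATXN1[82Q]V591A;S602D against wild type (right), with red points for edgeR adjusted p under 0.05 and a line at each list's median. Tnc lies at -2.37 on the left, where 47 genes are called, and 2 genes are called on the right.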

How the data were processed

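Per the submitters' processing notes, STAR 2.5.3a, HTSeq and DESeq2 were used with the genome mm10. The authors deposited 1 table of raw gene counts per library. Strand setting, counting mode and gene annotation: not given in the sources used here. For that reason counts of Tnr and its antisense partner may be shared. Of the reads, 16.8% to 18.2% matched no counted feature, 1.18% to 1.25% were ambiguous and 12.8% to 14.6% aligned to several places.

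Groups came from the genotype labels. Within genotypes all 30 pairs of libraries differed beyond sampling noise (chi-square over its degrees of freedom from 5.71 to 41.1). Counts were tested with edgeR 4.0.16 (quasi-likelihood F-test, TMM, filterByExpr with a minimum count of 10) under R 4.3.3; a single fit held the 15 libraries. The steps were tested on simulated data. The alternatives tried were RLE size factors, DESeq2 1.42.0, no filter, only the genotypes compared, omission of each library, omission of ATXN1[82Q] replicates 2 and 5, a replicate block, libraries with Ttr under 100 CPM, and a Hox covariate. The covariate planned as a mean over tested Hox genes had no gene, and the summed Hox CPM was used, chosen after seeing the data. Intervals reflect library spread only, and the labels' protocols name cDNA amplification and no molecular identifiers.

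Positions and exon lengths came from GENCODE M21. Named matrix genes were up to 4 called genes per list and comparison with the largest change and a mean log2 CPM of at least 1. Adamts4, Chst7 and the comparison of Tnc with the substitutions against wild type fall outside that rule and were chosen after their values were seen. Adamts5 and the comparisons of Timp3 with wild type also fall outside that rule. So do the comparisons of Sdc2, except that of the substitutions against wild type. Likeness was Pearson's r of log2 CPM after the genotype mean was removed, among genes whose mean log2 CPM reached 2, and 1 gene that this rule takes is not reported here. The members and gene lists were chosen with earlier results of these data known.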

Additional observations from a re-analysis of the deposited data

How the results depend on the processing

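Over 432 values of the 8 genes under the alternatives, 13 lost a call, 15 gained one and 9 changed sign. None of those that changed sign was called. With the substitutions against wild type, Acan went from -0.00436 to 0.0204 with the replicate block and to 0.26 in libraries with Ttr under 100 CPM. It went to between -0.149 and 0.0874 when 1 library was left out. Ncan went from -0.05 to 0.0449 in libraries with Ttr under 100 CPM. Between the transgenes Acan went from -0.49 with all libraries (edgeR adjusted p = 0.123) to 0.0732 in those libraries. Those libraries number 7, and in them 1563 genes were higher in ATXN1[82Q] than in wild type and 1 of the 8 matrix genes was, 11 genes were higher with the substitutions than in wild type, and between the transgenes 904 were higher and 608 lower, with 1 matrix gene lower. That fit held fewer libraries, and the part of this in the lower number of calls was not tested. There Hapln1 had an edgeR adjusted p of 0.0581 and Ncan of 0.131 in ATXN1[82Q] against wild type. DESeq2 called 108 genes higher and 321 lower with the substitutions against wild type, 1 matrix gene lower there, and 2 matrix genes higher between the transgenes, as did a fit of those genotypes alone. Without both ATXN1[82Q] libraries rich in brainstem transcripts 1380 genes and 2 matrix genes were lower between the transgenes. Leaving out 1 library gave 15 to 49 genes higher and 120 to 258 lower with the substitutions against wild type, and 1 to 2 matrix genes higher between the transgenes. Hapln2 in ATXN1[82Q] against wild type was called by DESeq2 (adjusted p = 0.0307), with the replicate block (edgeR adjusted p = 0.0422) and without wild-type replicate 1 or 5 or ATXN1[82Q] replicate 1 or 3. Between the transgenes Vcan and Tnr gained a call in 4 alternatives each. Libraries of the same replicate number were not paired (4 of 15 pairs of the same number correlated above 0.1, median -0.109), and the block ended no call of the 8 genes. The causes of these shifts were not tested. Depth limits Acan most, with 47 counts in its lowest library.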
